A study of Homo sapiens with 4 samples.

Results

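RAD21 peaks were examined on the assembly sequences of GRCh38 that are not chromosomes 1 to 22, X, Y or M, called scaffolds here. The members were chosen by sequence name alone, and 456 of the 56853 peaks of the list lay on such a scaffold, on 68 different ones. Of these, 56 were on the 2 scaffolds that hold ribosomal DNA, with 30 on chr22_KI270733v1_random and 26 on chrUn_GL000220v1. The other 400 peaks were spread over the remaining scaffolds. RAD21 binding had been measured by ChIP-seq, the sequencing of DNA fragments pulled down from fixed cells by an antibody against this protein. The list came from 1 library, that of untreated HCT116 cells of wild-type genotype, a human colon carcinoma line. Libraries of the degron line HCT116_RAD21_AID, a single cell clone with mAID joined to RAD21 and with OsTIR1, were not analysed here. Neither was the only Input library of the series, which came from degron cells given auxins at 500 µM each for 6 h. There were no replicates, so no difference below could be set against a spread between samples.

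RAD21 is the kleisin subunit of cohesin, a ring-shaped complex that holds sister chromatids together and extrudes chromatin loops, which often end where the DNA-binding protein CTCF is bound. The human 45S ribosomal RNA genes lie in tandem arrays on the short arms of the acrocentric chromosomes. RNA polymerase I transcribes each of them into a precursor that is cut into 18S, 5.8S and 28S rRNA, and a long intergenic spacer separates one gene from the next. Unlocalized scaffolds are assembly pieces with a known chromosome but no known position, while for unplaced ones the chromosome is unknown too. Many hold satellites, segmental duplications and other repeats that are hard to assemble.

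Peaks recurred at several places in and beside the ribosomal DNA, and the letters under the summits of 3 of these places are shown first because the values below turn on them. The capitals mark a stretch of 17 bases that resembled each other between the 3 places. All lines are the plus strand of GRCh38, read 5′ to 3′, except the last one, which is the minus strand.
Before the 45S start, chrUn_GL000220v1:104498-104558: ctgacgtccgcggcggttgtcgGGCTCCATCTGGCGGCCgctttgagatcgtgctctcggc
Intergenic spacer, chrUn_GL000220v1:134277-134337: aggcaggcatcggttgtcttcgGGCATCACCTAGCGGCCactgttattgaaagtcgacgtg
Flank of the array, chrUn_GL000220v1:93669-93729: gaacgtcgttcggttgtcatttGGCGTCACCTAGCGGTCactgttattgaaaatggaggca
Diverged spacer, chrUn_KI270442v1:231417-231477: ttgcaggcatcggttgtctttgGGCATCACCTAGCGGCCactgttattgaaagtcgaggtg

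Each listed peak has 1 summit, and the fold enrichment divides the ChIP fragments covering that base by a local background, each with 1 added. MACS2, the peak caller, sets that background from Input, taking the largest of the genome average and several local averages. The sources do not state which Input served this list, and the series holds none of wild-type cells. Both numbers were worked back from the listed fold enrichment and p-value. The lowest background of the list, 5.90 fragments, is called the floor here.

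Both ribosomal DNA scaffolds carried 45S genes at their end. On chrUn_GL000220v1, the complete gene RNA45SN5 spanned 105424 to 118780, and a second copy began at 149396 and was cut short by the end of the scaffold at 161802. On chr22_KI270733v1_random, RNA45SN4 spanned 122273 to 135645, and the second copy ran from 167355 to the end at 179772. These 4 copies matched a chr21 copy with an identity of 99.6% or more over their aligned length. The distance from one 45S start to the next was 43972 bp on chrUn_GL000220v1, with a transcribed part of 13357 bp and a spacer of 30615 bp. The spacer of chr22_KI270733v1_random was 31709 bp long. Along the unit of chrUn_GL000220v1, 18S took positions 3655 to 5523, 5.8S 6601 to 6757 and 28S 7925 to 12994, counted from 1 at the 45S start.

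Of the 56 summits, 16 lay within the transcribed 45S unit, 33 in the intergenic spacer and 7 outside the repeat. Within the transcribed unit, 10 were in 28S, 3 in 18S, 2 in the second internal spacer and 1 in the first internal spacer. No summit fell in 5.8S or in the external spacers. The 45S summits had low and similar fold enrichments between 2.60 and 4.03, with a median of 3.13, from 275 to 818 fragments over a background of 88.7 to 209 fragments. In 28S, which encodes the RNA of the large ribosomal subunit that holds the peptidyl transferase centre, the fold enrichment ranged from 2.60 to 3.99. The highest 28S peak was on chrUn_GL000220v1 at 115990, with 445 fragments, and on chr22_KI270733v1_random it was at 135134, with a fold enrichment of 3.89 from 818 fragments. The 28S peak at 159915 on chrUn_GL000220v1 had a fold enrichment of 3.42 and the one at 161251 a fold enrichment of 3.18. The highest peak of the transcribed unit was in the second internal spacer of chr22_KI270733v1_random, at 175166, with 614 fragments and a fold enrichment of 4.03. In 18S, the RNA of the small subunit, the 3 peaks lay between 2.96 and 3.11.

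Over the 33 spacer summits the median fold enrichment was 2.29, below the 3.13 of the gene, with a background between 107 and 490 fragments. Just before the 45S start, 883 to 906 bp upstream, every one of the 4 scaffold copies had a peak. On chrUn_GL000220v1, the summit at 104519 had 1438 fragments over a background of 107, a fold enrichment of 13.3. The second copy of that scaffold, at 148501, had 1513 fragments over 126, a fold enrichment of 11.9. On chr22_KI270733v1_random, the summit at 121390 had 1473 fragments over 115 and a fold enrichment of 12.8. Its second copy at 166449 had 1468 fragments over 139 and a fold enrichment of 10.5. No other peak on these scaffolds had as many fragments as any of these 4. Without these 4 peaks, the highest fold enrichment in the spacer was 5.78 and the median was 2.24.

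These upstream peaks were wide, from 3504 to 4148 bp, and ran from the spacer over the 45S start into the 5′ external spacer. The peak of summit 104519, for example, covered 104313 to 107835, with the gene starting at 105424. The spacer peaks of summits 119899 on chrUn_GL000220v1 and 135807 on chr22_KI270733v1_random reached back over the end of the gene. In all, 22 peaks touched the transcribed unit with at least 1 base, while 16 had their summit in it. The 50 bases on either side of the middle of the 17-base stretch were identical in all 4 scaffold copies and in the 4 copies on chr21. The stretch lay within 20 bp of each of these 8 summits.

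Another spacer site with a peak on both scaffolds lay 28869 to 28879 bp into the unit. On chrUn_GL000220v1 its summit at 134292 had 890 fragments over a background of 210, a fold enrichment of 4.22. On chr22_KI270733v1_random the summit at 152280 had 891 fragments over 153, a fold enrichment of 5.78. The numbers of fragments were nearly equal and the fold enrichments differed with the background. Further high spacer peaks lay shortly after the end of the gene. On chrUn_GL000220v1 the summit at 119899 had 944 fragments and a fold enrichment of 4.21, and on chr22_KI270733v1_random the summit at 135807 had 1105 fragments and a fold enrichment of 3.83. The spacer also held the weakest ribosomal DNA peak, at 103401 on chrUn_GL000220v1, with 237 fragments over a background of 150 and a fold enrichment of 1.58.

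The 7 summits outside the repeat unit had a background of 7.58 to 14.2 fragments, far below the 88.7 to 490 fragments inside it. Their fold enrichments ranged from 4.20 to 80.9, the highest of all scaffold peaks. The flank site lay 11730 to 11846 bp before the first 45S start. On chr22_KI270733v1_random the summit at 110427 had 999 fragments over a background of 11.4, a fold enrichment of 80.9. On chrUn_GL000220v1 the summit at 93694 had 553 fragments over 14.2, a fold enrichment of 36.4. Within 200 bases of the middle of the shared stretch, these copies differed at 2 positions, and within 50 bases at none. Closer to the gene, 8360 to 8456 bp before its start, a second flank site had 114 fragments and a fold enrichment of 9.30 on chr22_KI270733v1_random, at 113817. On chrUn_GL000220v1 it had a fold enrichment of 7.26 from 107 fragments, at 97064. The remaining 3 flank peaks had no counterpart on the other scaffold. The 3 peaks were at 12401 on chr22_KI270733v1_random with a fold enrichment of 17.7 from 188 fragments, at 27455 on the same scaffold with 45 fragments and a fold enrichment of 5.24, and at 68148 on chrUn_GL000220v1 with 35 fragments and a fold enrichment of 4.20.

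**Figure D1:**
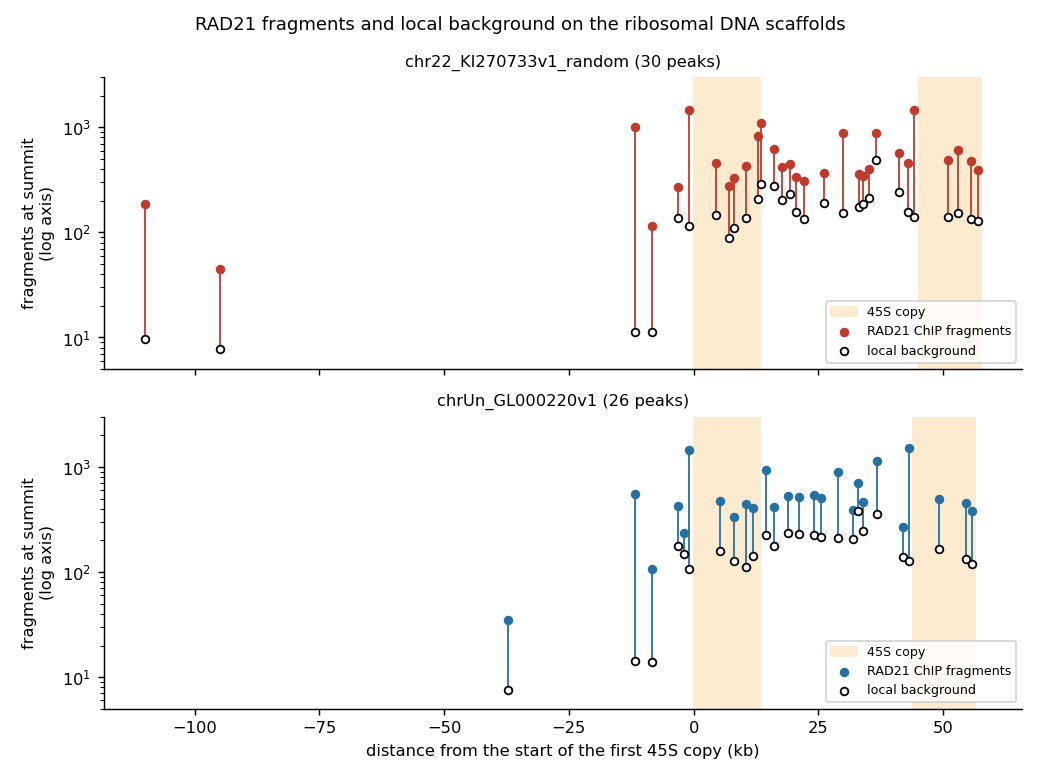
ChIP fragments (filled points) and local background (open points) at each summit, in fragments on a log axis, against the distance in kb from the start of the first 45S copy, for the 30 peaks of chr22_KI270733v1_random and the 26 of chrUn_GL000220v1, with the 45S copies shaded. The background steps up from 14.2 or less in the flank to 88.7 or more in the repeat, and the longest line on each scaffold stands 11730 to 11846 bp before the first 45S copy.

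The ribosomal DNA units placed on chr21 were the most similar regions of the assembly, and 67 peaks lay in or near the 4 copies found there. Their values were close to those of the scaffolds. The site before the 45S start had 961 to 1497 fragments and a fold enrichment of 7.63 to 14.1 in the 4 chr21 copies. The lowest of them preceded the copy at 8250197, whose sequence within 200 bases of the stretch differed from that of chrUn_GL000220v1 at 74 positions when set side by side without gaps, while the other 3 did not differ. The spacer site had 904 to 918 fragments in 3 chr21 copies, with a fold enrichment of 3.96 to 4.63. The flank site reached a fold enrichment of 91.3 at 8194174 and of 75.2 at 8377233. In the transcribed unit, the 15 chr21 summits had a median fold enrichment of 3.28, beside 3.13 for the 16 scaffold summits. Copies are not independent measurements, because the aligner gives a fragment that matches several of them equally well to one of them. Among the 56 ribosomal DNA summits, 43 had at least 1 other exact copy of the 100 bases centred on them, and 15 had exactly 7. Of the 229 such copies, counted over all these summits, 226 (98.7%) lay in a listed peak.

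The 17-base stretch was compared between the 3 places after their values were seen. The spacer and flank sites shared 15 of its 17 bases and 43 of the 61 bases shown above, and the site before the 45S start shared 13 of 17 with the spacer site. The letters common to all 3 were GGCNNCANCTNGCGGNC, in which N stands for any base. Searched on both strands, they occurred 117 times in the assembly of 2949 Mb, and 55 of these occurrences (47.0%) lay in a listed peak. Within 50 bp of a summit they occurred in 43 of all 56853 peaks (0.0756%), 8 of them on the ribosomal DNA scaffolds and 9 in or beside the chr21 units. The stretch was chosen from these sites, so its presence there is no evidence of anything. A consensus of the DNA-binding protein CTCF was matched exactly on both strands within 50 bp of the summit. It was found at none of the 56 ribosomal DNA summits, beside 11.4% of all peaks. The 95% Wilson interval reaches up to 6.42%, but it counts the summits as independent, which copies are not. With 1 mismatch the consensus was found at 1 of the 56 summits, at 12401 on chr22_KI270733v1_random, outside the repeat. Matches with more mismatches were not searched for, so whether the stretch resembles the CTCF motif more loosely was not tested.

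One further scaffold resembled the ribosomal DNA unit. Between 216394 and 238463 of chrUn_KI270442v1, in the reverse orientation, 7 stretches with 20940 aligned bases matched the unit with 80.4% to 86.0% identity. Of the 19 peaks on this scaffold, 6 had their summit in these stretches. The highest of the 6, at 231455, had 88 fragments over a background of 11.3 and a fold enrichment of 7.26. It corresponded to position 28876 of the unit, the place of the spacer site shown above, and it carried all 17 bases of the stretch and 57 of the 61 bases shown. The other 5 had fold enrichments between 2.17 and 3.94, with 1 each at positions corresponding to 18S, the first and the second internal spacer and 2 in the intergenic spacer. None of the 19 summits of this scaffold had another exact copy of its 100 bases in the assembly, as was so for 13 of the 56 summits of the ribosomal DNA scaffolds. Outside these stretches, the highest peak of the scaffold was at 251490, with 155 fragments and a fold enrichment of 16.4.

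Across all scaffolds, RAD21 peaks were weaker and lay on a higher background than on the chromosomes. The median fold enrichment was 2.85 for the 456 scaffold peaks (quartiles 2.09 and 4.83) and 5.62 for the 56397 chromosome peaks (3.48 and 10.8). A fold enrichment of at least 10 was reached by 50 scaffold peaks (11.0%, 95% Wilson interval 8.42% to 14.2%), beside 27.2% of all peaks. The median number of fragments was higher on scaffolds, 90.5 against 48. The background was 10 or more times the floor for 163 scaffold peaks (35.7%, 31.5% to 40.2%), beside 1.13% of all peaks. Of the ribosomal DNA scaffold peaks 49 had such a background, and of the other scaffold peaks 114 (28.5%). The scaffold peaks with a background under 2 times the floor, 189 in number, had a median fold enrichment of 3.94, beside 5.77 for the chromosome peaks of that class. The median width was 465 bp for all scaffold peaks against 446 bp on the chromosomes. It was 1049.5 bp for the ribosomal DNA scaffold peaks and 427 bp for the other scaffold peaks. These intervals cover counting error only. The number of copies of each sequence in HCT116 cells is not in the list, and its part in the background was not tested.

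**Figure D2:**
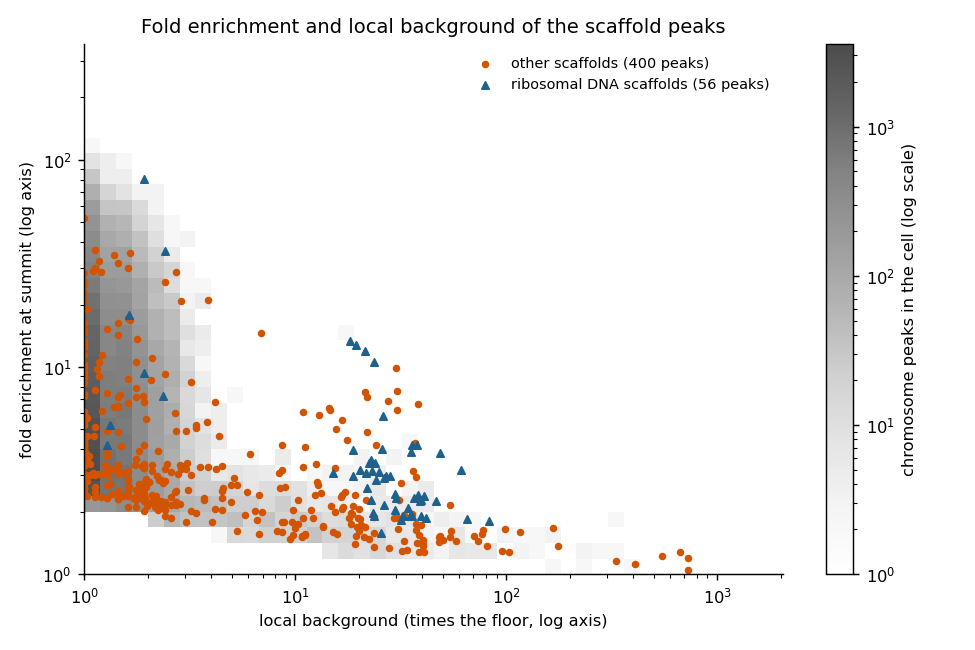
Fold enrichment at the summit (log axis) against the local background in multiples of the floor (log axis) for the 400 peaks of other scaffolds (orange points) and the 56 ribosomal DNA scaffold peaks (blue triangles), over the number of chromosome peaks in each cell (grey). Most chromosome peaks sit under 2 times the floor, while 163 scaffold peaks lie at 10 times that level or above.

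Per length, scaffolds held more listed peaks than the chromosomes. Over the 10.97 Mb of scaffold sequence without N there were 41.6 peaks per Mb (exact Poisson interval 37.8 to 45.6). The chromosomes, with 2938 Mb, had 19.2 per Mb. Peaks with a background under 2 times the floor numbered 189 on scaffolds and 51908 on chromosomes. Per length, these alone were not more frequent on scaffolds. The density was 270 per Mb on chr14_GL000225v1_random. On the ribosomal DNA scaffolds chr22_KI270733v1_random and chrUn_GL000220v1 it was 167 and 161 per Mb. The 42 unlocalized scaffolds of the assembly had peaks on 34 of them, and the 127 unplaced ones held 200 peaks, also on 34. The scaffolds without a peak were short, with a median length of 2186 bp, while those with a peak had a median length of 150748 bp. The longest scaffold without a peak had 112551 bp. Among the unlocalized scaffolds, 100 peaks belonged to those assigned to chromosome 14, 42 to chromosome 22, 26 to chromosome 1 and 24 to chromosome 2.

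Nearly all scaffold peaks had a relative elsewhere in the assembly. An exact copy of the 100 bases centred on the summit was present elsewhere for 233 scaffold peaks (51.1%, 46.5% to 55.7%), beside 6.97% of all peaks. For the other 400 peaks, 397 had a place on a chromosome that matched at least 80% of the sequence within 200 bases of the summit, with a median identity of 98.3%. A listed peak lay at the best such place for 212 of them. By the GENCODE annotation of that place, 70 of the 397 were within 1 kb of a transcription start, 9 in an exon, 65 in an intron and 253 intergenic. Chromosome peaks were not searched or annotated in this way. These counts therefore have no share over all peaks beside them, and whether they are unusual was not tested. The annotation used here has no genes on scaffolds, so no gene name could be given to a scaffold peak itself.

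Strong scaffold peaks mostly had a listed peak at the matching chromosomal place too. Among the other 400 peaks, 43 reached a fold enrichment of 10, and 35 of the 43 had one. In 22 of these 35, the numbers of fragments were within 1.5 times of each other, with more on the scaffold in 9 and fewer in 4. The strongest was on chrUn_KI270748v1, covering 68066 to 69113, with 362 fragments over a background at the floor and a fold enrichment of 52.6. Its best match on chr1 had 352 fragments and a fold enrichment of 51.2. The next was on chrUn_GL000195v1 at 103424, with 280 fragments and a fold enrichment of 36.8, and a related peak on chr17_GL000205v2_random at 175321 had 313 fragments and a fold enrichment of 30.0. Both matched the same place on chr21, where the peak had 160 fragments.

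Several strong peaks formed such families. A place in an intron of the pseudogene TEKT4P2 on chr21 had a peak of 183 fragments. The matching peaks had 319 fragments and a fold enrichment of 34.8 on chrUn_GL000218v1, 143 fragments and 20.9 on chr14_GL000194v1_random, and 78 fragments and 11.4 on chrUn_KI270744v1. A place in an intron of the pseudogene POM121L15P on chr22 had 254 fragments. Its relatives had 379 fragments and a fold enrichment of 35.6 on chr22_KI270731v1_random, and 258 fragments and 32.6 on chr22_KI270734v1_random. For 2 further families, the best chromosomal places held no listed peak. One comprised the peaks on chr14_KI270722v1_random at 148978, with 300 fragments and a fold enrichment of 31.6, and on chr1_KI270708v1_random at 115792, with 227 fragments and 29.9, which both matched chr22. The other comprised the peaks on chrUn_KI270741v1 at 9991, with 217 fragments and a fold enrichment of 29.1, and on chrUn_GL000224v1 at 68102, with 229 fragments and 28.6. The best match of chrUn_KI270741v1 at 9991, on chr1, had 89.8% identity. The last of the 10 highest peaks was on chr14_KI270723v1_random at 19108, with 491 fragments and a fold enrichment of 28.8, beside 183 fragments at its match on chr4.

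The 4 of these 10 peaks with an exact CTCF consensus are shown with 20 bases on either side, on the strand of the consensus, to show how far the letters of the families differ. The capitals mark the consensus.
chr14_KI270722v1_random:148979-149030, minus strand: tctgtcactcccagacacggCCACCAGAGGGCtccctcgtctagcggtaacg
chr1_KI270708v1_random:115811-115862, minus strand: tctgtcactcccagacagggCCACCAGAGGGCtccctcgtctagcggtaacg
chrUn_KI270741v1:9993-10044, minus strand: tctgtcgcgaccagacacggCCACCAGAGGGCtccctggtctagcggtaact
chr14_KI270723v1_random:19060-19111, plus strand: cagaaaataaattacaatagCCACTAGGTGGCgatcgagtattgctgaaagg

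The first and the second of these differed at 1 of 52 positions and the first and the third at 5, while the last differed from the first at 30. Among all scaffold peaks the exact consensus was found at 22 summits (4.82%, 3.21% to 7.20%), beside 11.4% of all peaks. None of the 22 was on a ribosomal DNA scaffold, and none had a background of 5 times the floor or more. Under 2 times the floor, 18 of 189 scaffold peaks held the consensus (9.52%), beside 5958 of 51908 chromosome peaks. The gap was smaller in that class. Of the 43 strong peaks compared above, 14 held it (32.6%, 20.5% to 47.5%), beside 22.4% of the chromosome peaks above that level. Some of the 14 were copies of one another within a family, so this interval is too narrow. A match is a description of letters and shows no binding of CTCF.

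The H19 locus offered a direct comparison between a scaffold and its chromosome. Scaffold chr11_KI270721v1_random is 100316 bp long and held 7 peaks, all at the floor of the background, with a median fold enrichment of 13.3, the highest among the scaffolds with 7 or more peaks. It matched the region of chr11 that holds MRPL23, which encodes a mitochondrial ribosomal protein, and H19, an imprinted gene with a noncoding transcript. The imprinting control region of H19 is known for repeated CTCF sites, which are bound on the maternal allele. For 6 of the 7 peaks, the sequence within 200 bases of the summit was identical in the scaffold and in chr11, and both had a listed peak. At the MRPL23 start, the scaffold had 31 fragments and chr11 had 29. In the MRPL23 intron at 24437, both had 64. In the H19 region, the summit at 53674 had 85 fragments and its counterpart 98. The summit at 55141 had 194 fragments on the scaffold and 208 on chr11, and the one at 57390 had 112 and 113. The peak at 92263, intergenic on chr11, had 156 and 150. The aligner splits such fragments between identical places, so each pair shares the fragments of 1 sequence and its members cannot be told apart.

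The seventh peak, at 8891, was the exception. It had 91 fragments and a fold enrichment of 13.3 on the scaffold, and no listed peak at the matching place in an MRPL23 intron on chr11. Within 200 bases of the summit, the sequences differed at 2 positions, and the 100 bases centred on it had no other exact copy. An exact CTCF consensus lay beside the summit, from 8901 to 8912. The 52 bases with the consensus in their middle were identical on both, and are shown because the peak was listed on 1 of them only.
chr11_KI270721v1_random:8881-8932, plus strand: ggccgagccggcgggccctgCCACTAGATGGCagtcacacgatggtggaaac
chr11:1953686-1953737, plus strand: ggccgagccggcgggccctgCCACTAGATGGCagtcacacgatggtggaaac

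The H19 peaks held no exact consensus within 50 bp of their summits. The letters CCGCNNGGNGGCAG, known from the CTCF sites of the H19 control region, were therefore searched for on both strands after the values were seen. The scaffold matches the H19 region, so the presence of these letters there is no evidence of anything. The letters occurred 5 times on the scaffold, and 3 of the 5 lay in a listed peak. Of all 56853 summits, 160 (0.281%) had them within 50 bp. The sites at the summits 55141 and 57390 are shown on the minus strand, with the searched letters in capitals.
chr11_KI270721v1_random:55126-55186: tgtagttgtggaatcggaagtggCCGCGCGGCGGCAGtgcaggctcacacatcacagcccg
chr11_KI270721v1_random:57371-57431: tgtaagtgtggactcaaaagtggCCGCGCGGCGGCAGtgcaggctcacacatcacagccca

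The scaffold with most peaks, chr14_GL000225v1_random, held weak peaks on a high background. Its 57 peaks had a median fold enrichment of 1.83 and a median background of 19.1 times the floor. The sequence around each summit was compared with itself at a range of shifts, and the smallest shift with a match close to the highest was taken. It was 68 or 69 bp in 43 of the 57, the length known for beta satellite, a tandem repeat of pericentromeric regions. Some of the 43 matched only weakly, such as 35.3% of bases at summit 80717. The best chromosomal matches of the 57 peaks had a median identity of 92.8%. Of these matches, 12 were annotated with genes of the DUX4 family, which encodes a homeobox transcription factor of the early embryo and has many copies near beta satellite. Only 8 of the 57 peaks reached a fold enrichment of 4. The highest was at 112823, with 1760 fragments over a background of 177 and a fold enrichment of 9.89. The 6 scaffolds with most peaks held 164 of the 456 in all. Besides this one, the ribosomal DNA scaffolds and chrUn_KI270442v1, these were chr14_GL000194v1_random and chr16_KI270728v1_random with 16 peaks each, and median fold enrichments of 3.26 and 5.16. The latter scaffold held 6 exact CTCF consensus summits, and its highest peak, at 1162020, had 101 fragments and a fold enrichment of 14.8.

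**Figure D3:**
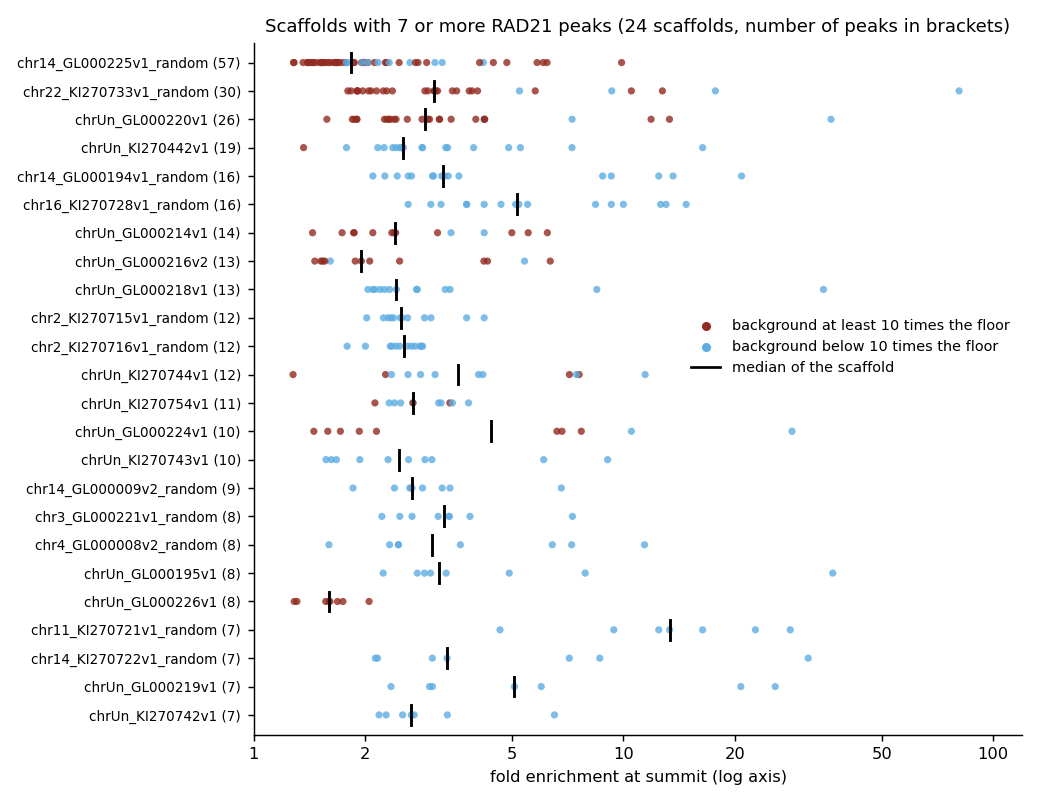
Fold enrichment at the summit (log axis) of every peak on the 24 scaffolds with 7 or more peaks, ordered by their number, with the median of each scaffold as a black line and peaks whose background was 10 or more times the floor in dark red. The median is highest on chr11_KI270721v1_random at 13.3 and is 1.83 on chr14_GL000225v1_random, where 45 of 57 peaks are dark red.

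Some of the other scaffold peaks lay in satellite repeats. To find these, the 500 bases on either side of each summit were compared with themselves at shifts of 2 bp and more, below 400 bp, and a match of at least 60% was taken as a tandem repeat. This held for 70 scaffold peaks (15.4%, 12.3% to 18.9%), beside 2.49% of all peaks. None of the 70 was on a ribosomal DNA scaffold. Only 4 of the 57 peaks of chr14_GL000225v1_random passed the limit, so it left out most of those with the shift described above. The 70 peaks had a median fold enrichment of 1.90, and 1 of them exceeded 10, the peak on chrUn_KI270748v1 with a shift of 68 bp. In 24 of the 70 the shift was 171 bp, the length of the alpha satellite of human centromeres.

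Alpha satellite monomers can carry the CENP-B box, the binding site of the centromere protein CENP-B. The letters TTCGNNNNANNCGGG of this box, on either strand and no more than 500 bp from the summit, were found for 38 scaffold peaks on 7 scaffolds (8.33%), beside 2.10% of all peaks. All 12 peaks of chr2_KI270715v1_random and all 12 of chr2_KI270716v1_random held it. They were weak, with 17 to 39 fragments and fold enrichments of 1.79 to 4.20. On chrUn_GL000226v1, the 8 peaks with the box had 143 to 262 fragments and fold enrichments of 1.29 to 2.05. The monomer at the highest of the 38, at 74233 on chr2_KI270715v1_random with 28 fragments and a fold enrichment of 4.20, is shown with the box in capitals.
chr2_KI270715v1_random:74163-74333, plus strand: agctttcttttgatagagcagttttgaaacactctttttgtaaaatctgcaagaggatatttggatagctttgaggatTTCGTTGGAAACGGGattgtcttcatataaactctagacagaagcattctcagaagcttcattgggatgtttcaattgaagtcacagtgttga

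Repeats of GGAAT, the unit of the classical satellites of pericentromeric heterochromatin, were the other class. At least 20 copies of GGAAT on 1 strand within 500 bp were found at 14 scaffold peaks on 6 scaffolds (3.07%), beside 0.271% of all peaks. These had the lowest fold enrichments, between 1.05 and 1.87, on backgrounds of 31.3 to 4303 fragments. The extreme was chrUn_KI270438v1 with 5124 fragments at 109414 over a background of 4303, a fold enrichment of 1.19, the most fragments and the highest background of all scaffold peaks. Its peak at 104106 had 4493 fragments over 4276 and the lowest fold enrichment of all members, 1.05. The 375 scaffold peaks that met none of these rules had a median fold enrichment of 3.08. They held all 22 consensus summits and 49 of the 50 peaks that reached a fold enrichment of 10. These 375 were not free of repeats. Most peaks of chr14_GL000225v1_random and all those of the ribosomal DNA scaffolds were among them, and their background reached 987 fragments.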

How the data were processed

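RAD21 ChIP-seq data of 1 library of untreated wild-type HCT116 cells were analysed, and the other 3 of the 4 libraries of the series were not used here. Per the submitters' processing notes and the methods, the authors trimmed paired reads (Trimmomatic 0.39), aligned them to the GRCh38 analysis set (Bowtie2 2.5.3, maximum insert 1000), removed duplicates (Picard) and called peaks against Input (MACS2 2.2.9.1, q-value 0.05). Neither the Input that served this library nor a mapping quality filter for peak calling is given in the sources used here. The deposited values are a fold enrichment (a ratio), the −log10 of p-value and q-value, and a score that was not used. The deposited list gives no read totals, so depth is known only as the fragments per summit.

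The members and lists were chosen with earlier results of these data known. Fragments k and background b were recovered from fold enrichment (k + 1)/(b + 1) and the Poisson p-value. The fragments were whole within 0.05 for all but 14 of 56853 peaks, while the background need not be whole. On data simulated with the same formulas 5000 of 5000 were recovered. That checks the working back and not whether the formulas hold for the list. Repeat units were aligned with blastn 2.17.0, and summits were carried over column by column. The rRNA genes came from RefSeq, after a match of their spans by sequence, and genes of chromosomes from GENCODE 44. Sequences were read from GRCh38. Named were the 10 highest peaks on each ribosomal DNA scaffold, the 10 highest others, the 6 scaffolds with most peaks, rRNA genes and protein-coding genes within 1 kb of a scaffold summit, of which none could be placed. The H19 scaffold, chrUn_KI270442v1 and its diverged unit, the satellites, the peak families and the letter searches were added after the values were seen. Shares have 95% Wilson intervals, which count peaks as independent although many are copies of one another. No test was possible with 1 library. Alternatives were q-value and fold thresholds, sets of scaffolds, window sizes, motif rules and a background limit. The tools were scipy 1.17.1, pandas 2.3.3, numpy 2.4.6 and matplotlib 3.10.9 under Python 3.11.15.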

Additional observations from a re-analysis of the deposited data

How the results depend on the processing

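With 1 library and no test, no call could change, and values could only move. Of 40 alternatives, 26 stayed within the counting interval of the value or within 1.5 times of the count, and 14 moved it. The median fold enrichment of 2.85 rose to 3.15 at a q-value of at most 0.001 and to 3.36 at 1e-05. The share whose background was 10 or more times the floor, 35.7%, was 41.4% for 5 times, 24.8% for 20 times and 43.4% at a q-value of at most 1e-05. The CTCF share of 4.82% became 14.9% with 1 mismatch, for which no share over all peaks was taken. The share of summits with another exact copy, 51.1%, was 68.6% for 50-mers and 36.2% for 200-mers. Over scaffolds with at least 1 peak the density was 46.3 per Mb instead of 41.6.

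A background below 2 times the floor, an alternative added after the values were seen, left 189 of the 456 scaffold peaks and 5 of the 56 ribosomal DNA scaffold peaks. In that set the median fold enrichment was 3.94, the CTCF share 9.52% and the share with another exact copy 66.1%. The chromosome peaks of that class had a median fold enrichment of 5.77, and 5958 of 51908 held the CTCF consensus. Their share with another exact copy was not taken. All 56 ribosomal DNA scaffold peaks and all 16 with a summit in the 45S unit passed a q-value of 1e-05. No paired analysis was possible because there was 1 library. Read placement among identical copies and the copy number of the cells limit every level given for repeated sequence, and their part was not tested.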
